A study of Mus musculus with 12 samples.

Results

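The comparison described here is the interaction of housing with MC903 in mouse ear skin: for each gene, the response to MC903 in germ-free (GF) skin minus the response in specific-pathogen-free (SPF) skin. It uses 12 of the 12 libraries of the series, in 4 groups of 3, and 16466 of the 24532 genes in the table passed a filter on low counts and were tested. The groups were SPF skin with ethanol, SPF skin with MC903, GF skin with ethanol and GF skin with MC903. The strain is labelled C57BL/6 in 9 libraries, and in GF MC903 4, GF ethanol 5 and GF MC903 5 the label reads C57BL/7, C57BL/8 and C57BL/9. Ethanol is the vehicle, and MC903 (calcipotriol) is an analogue of vitamin D that inflames mouse skin when painted on it. The label gives the number 5 and the word daily, which leaves unclear whether mice were painted on 5 days or 5 times a day. No age or hour of collection was used here. SPF libraries are numbered 1, 2 and 3 and GF libraries 1, 4 and 5, each number with 1 ethanol and 1 MC903 library. The labels do not say whether a number marks 1 mouse. Whether the 3 libraries of a group come from 3 mice is not in the labels; the tests therefore reflect how far these libraries differ, which may be technical spread.

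The epidermis is renewed by basal keratinocytes that stop dividing, move outwards, switch to keratins such as KRT1, KRT10 and KRT2, and end as cornified cells sealed by cross-linked protein and lipid. Injured or inflamed epidermis leaves this programme for another, with the keratins KRT6, KRT16 and KRT17 and small proline-rich proteins. Mice without microbes lack the bacterial products that keratinocytes and skin immune cells sense on SPF skin. The study concerns how the microbiota bears on inflammation that resembles atopic dermatitis, and the interaction addresses, gene by gene, whether the response to MC903 differed between the housings.

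Levels are given as CPM, the read count normalised to library size after scaling by edgeR's TMM factors. Levels compare libraries for 1 gene, not genes of different length. The interaction, responses and housing differences are log2 values from 1 edgeR quasi-likelihood fit, and a gene is called at a Benjamini-Hochberg adjusted p under 0.05 over the 16466 genes. Every adjusted p below is from that test unless another tool is named. A positive interaction means a higher response in GF skin, whether through a larger rise or a smaller fall. The interaction shares its libraries with both responses and with both housing differences, so those values stand beside it as its parts and are no separate evidence.

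Totals lay between 36358294 and 48225425 counts per library. No 2 replicates matched within sampling noise (chi-square over its degrees of freedom 17.2 to 44.9), and each library counted as 1 replicate. The 10 most abundant genes took 7.2 to 8.01% of counts in the ethanol libraries, 8.52 to 9.54% in SPF MC903 libraries and 10.8 to 11.5% in GF MC903 libraries, and TMM factors were 1.16 to 1.25 with ethanol and 0.806 to 0.836 with MC903. Skin markers were present in every library: Krt10 reached at least 7536 CPM. Genes of skeletal muscle, of cartilage and of fat were measured too, tissues that the ear also holds. In bulk tissue, fewer cells of a type and less RNA per cell cannot be told apart.

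MC903 moved much of the transcriptome in both housings, and the responses were smaller in GF skin for most genes that differed. The interaction was called for 2800 genes, 17% of those tested: 1276 higher in GF skin (7.75%) and 1524 lower (9.26%). Of these, 639 differed at least 2-fold, 367 higher and 272 lower. The SPF response was called for 73.8% of genes and the GF response for 68.5%. The GF minus SPF difference was called for 22% of genes with ethanol and 41.7% with MC903. The median interaction over all genes was 0.02, with quartiles at -0.26 and 0.30, close to 0. Scaled to library totals in place of TMM factors, the called genes split the other way, 1656 higher and 1151 lower, 59% higher against 45.6%, with a median of 0.08.

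Among the 2800 called genes, the response was nearer to 0 in GF skin for 2334 and farther from 0 for 466. The 1276 higher genes held 901 that fell in both housings and fell less in GF skin, 279 with a fall in SPF skin and a rise in GF skin, and 96 that rose in both. The 1524 lower genes held 1098 with a rise in both housings that was smaller in GF skin, 280 with a rise in SPF skin and a fall in GF skin, and 146 that fell in both. These counts go by the sign of the fitted responses, whether or not each passed. Both responses passed, in opposite directions, in 111 called genes.

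Across all genes tested, the responses of the 2 housings, which share no libraries, had a Pearson correlation of 0.864 and a Spearman correlation of 0.876. These are across genes, which are not independent replicates, and are given as a description. The SD of the response was 1.46 in SPF skin and 1.23 in GF skin. Set against the mean ethanol level of its housing, each SPF MC903 library had a response SD between 1.33 and 1.42 over genes and each GF MC903 library one between 1.17 and 1.18. The 3 GF libraries were close to each other and below all 3 SPF libraries. In the plot of responses, the genes called higher lie above the diagonal and the genes called lower below it.

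**Figure D1:**
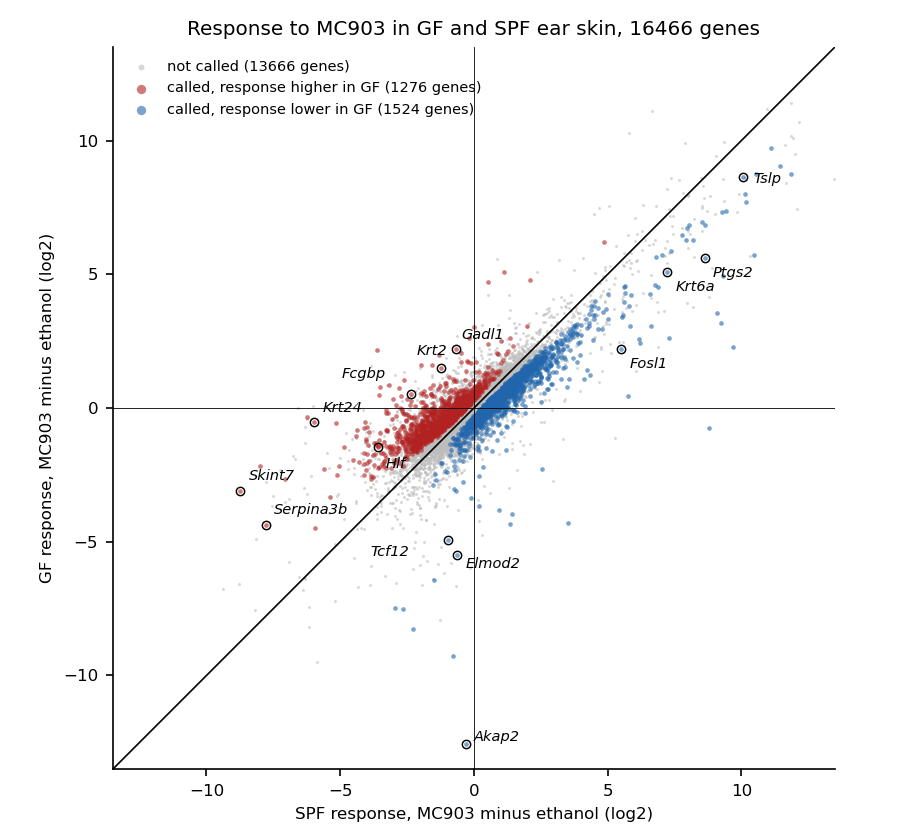
Log2 response to MC903 in SPF skin (horizontal axis) and in GF skin (vertical axis) for each of 16466 genes, from 3 libraries per group. The diagonal marks equal responses, grey points were not called, red points (1276) had a higher and blue points (1524) a lower response in GF skin, and circled genes are named in the text.

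Several of the genes with the largest positive interactions fell with MC903 in SPF skin and fell less, did not pass or rose in GF skin. Krt24, a keratin of differentiating keratinocytes at chr11:99279959-99285262 (GRCm38.p6, as for all coordinates here), had the lowest adjusted p of all genes. In SPF skin it stood at 359, 288 and 283 CPM with ethanol and 5.49, 4.35 and 5.03 CPM with MC903. In GF skin the same gene stood at 300.1, 356 and 344 CPM with ethanol and 227, 269 and 196 CPM with MC903. The 3 SPF MC903 libraries were far below the other 9, which lay between 196 and 359 CPM. The SPF response was -5.97, the GF response -0.53 and the interaction 5.44 (SE 0.20, adjusted p = 3.5e-08), so the fall was large in SPF skin and slight in GF skin.

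A pair of neighbouring genes on chromosome 15 fell in SPF skin, and neither response passed in GF skin. Slurp1 (chr15:74726644-74728023) and Slurp2 (chr15:74742839-74746687) encode small secreted Ly6-type proteins of keratinocytes, and loss of the first causes a palmoplantar skin disease in people. Slurp2 fell from 57.8, 60.3 and 62.5 CPM to 6.99, 5.19 and 7.07 CPM in SPF skin. With GF housing it measured 66.3, 73.6 and 69.8 CPM with ethanol and 66.4, 68.9 and 50.6 CPM with MC903, which overlap. Its interaction was 3.06 (SE 0.18, adjusted p = 2.7e-06), on an SPF response of -3.23 and a GF response of -0.17 that did not pass (adjusted p = 0.23). Slurp1 was at 29.1, 11.1 and 14.2 CPM in SPF MC903 libraries and 159, 171 and 123 CPM in GF MC903 libraries, with an interaction of 2.85 (SE 0.37, adjusted p = 0.00047).

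Alox12e, an epidermal lipoxygenase, fell in SPF skin and did not pass in GF skin (response -0.08, adjusted p = 0.66). Its SPF values were 222, 305 and 305 CPM with ethanol and 28.9, 25.5 and 31.2 CPM with MC903, and its GF values 439, 448 and 344 CPM and 478, 375 and 308 CPM. The GF groups overlap and the SPF groups do not. The interaction was 3.20 (SE 0.24, adjusted p = 2.6e-05). Defb6, a beta-defensin, also fell in SPF skin, from 30.9, 28.3 and 25.4 CPM to 1.62, 2.26 and 0.888 CPM, but fell in GF skin as well, from 33.3, 35.2 and 34.3 CPM to 20.8, 22.5 and 18.2 CPM, with an interaction of 3.38 (SE 0.28, adjusted p = 3.4e-05). Mt4, the metallothionein of stratified epithelia, was at 26.7, 8.07 and 11.4 CPM in SPF MC903 libraries and 140.2, 177 and 98.3 CPM in GF MC903 libraries, against 67.1 to 114 CPM with ethanol over both housings, with an interaction of 3.57 (SE 0.49, adjusted p = 0.00064).

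Serpina3b, Skint4 and Skint7 fell in both housings and fell further in SPF skin. Serpina3b, a protease inhibitor with near-identical copies whose counts are uncertain, went from 114, 87.8 and 90.3 CPM to 0.35, 0.566 and 0.395 CPM in SPF skin and from 158, 144 and 195 CPM to 6.25, 8.23 and 9.51 CPM in GF skin. Its interaction was 3.41 (SE 0.29, adjusted p = 4e-05). Skint7 and Skint4 on chromosome 4 belong to a family of immunoglobulin-like genes of skin and thymus whose founding member selects a class of epidermal T cells; the members are near copies, so their counts are uncertain. Skint4 measured 0.974, 0.617 and 1.48 CPM in SPF MC903 libraries and 6.39, 6.59 and 6.02 CPM in GF MC903 libraries after 26.3 to 40.4 CPM with ethanol, an interaction of 2.88 (SE 0.29, adjusted p = 0.0001). Skint7 had 2 counts in the 3 SPF MC903 libraries together, so that its ethanol level was 493 times higher with a 95% counting interval from 136 to 4070, and 0.596, 1.42 and 0.573 CPM in GF MC903 libraries. Its fitted interaction of 5.64 rests on those 2 counts and is no precise size.

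The largest positive interactions also included Serpinb1c (4.41), Wnt10b (3.30), a Wnt ligand, Guca2a (2.91, not called by limma voom, adjusted p = 0.11), which encodes guanylin, and 1110002L01Rik (3.65). Wnt10b was low throughout, at 3, 3.61 and 4.44 CPM with ethanol and 0, 0.129 and 0.0987 CPM with MC903 in SPF skin. For 1110002L01Rik the MC903 groups overlap, at 2.02, 0.257 and 0.428 CPM in SPF and 3.38, 0.75 and 3.55 CPM in GF skin. Its GF minus SPF difference was -2.18 with ethanol (adjusted p = 0.023) and 1.47 with MC903 (adjusted p = 0.09). The gene model of Kif3c overlaps it. Scgb1b27, a secretoglobin, differed in kind: it did not pass in SPF skin (0.02) and rose from 1.16, 2.15 and 1.51 CPM to 12.6, 12.8 and 14.6 CPM in GF skin, with an interaction of 3.03 (SE 0.40, adjusted p = 0.0005). SPF MC903 1 stood nearest to the GF libraries for Krt2, Krt10, Slurp1, Mt4, Them5 and Gadl1. Without it the interactions of Slurp1 and Mt4 were 3.38 and 4.23, larger than with it.

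**Figure D2:**
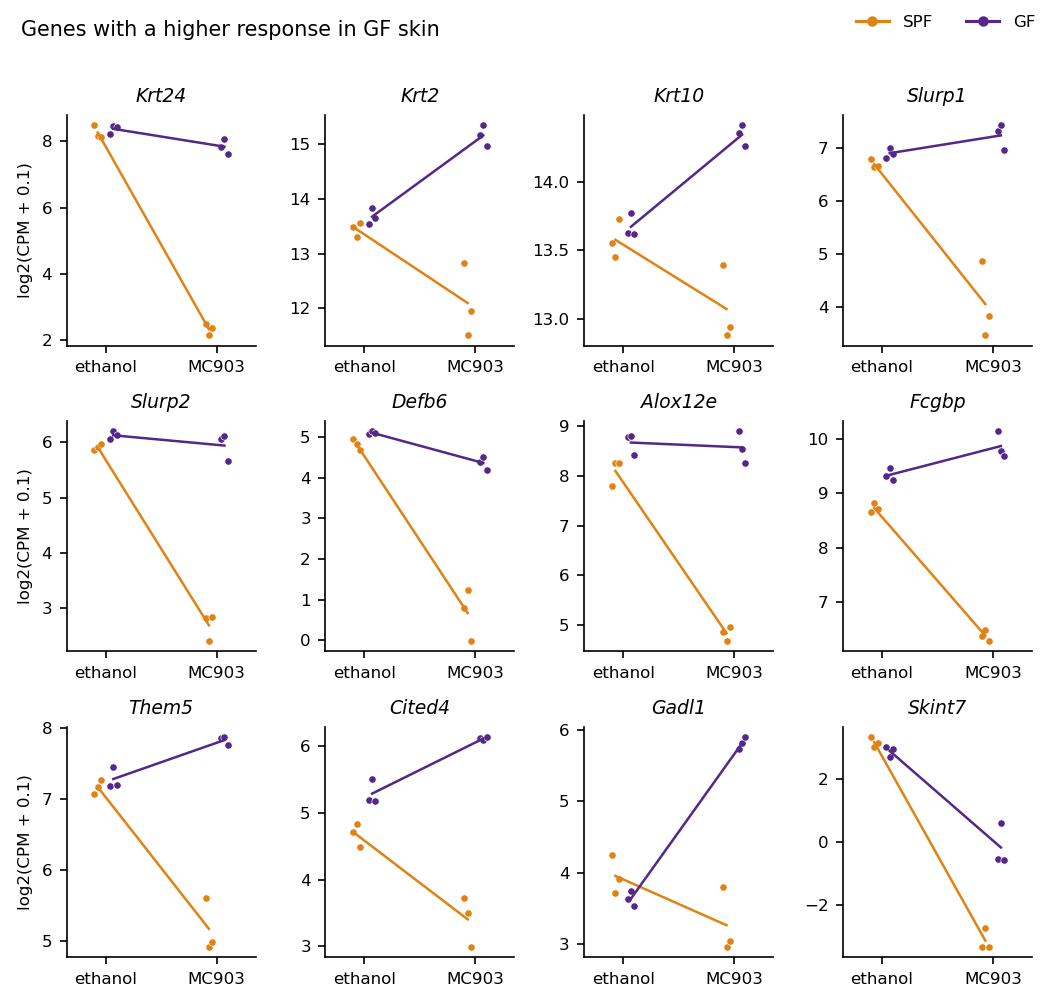
Level of 12 genes called higher in GF skin, as log2(CPM + 0.1) on axes that differ between genes, in each of 3 libraries per group (points) with lines joining the group means. SPF values (orange) drop with MC903 in all 12 panels, while GF values (purple) stay level, rise or drop less.

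Several genes changed in opposite directions in the 2 housings, each response passing its own test. Krt2, the keratin of the uppermost living epidermis, at chr15:101810689-101818956, was one of the most abundant. It stood at 11424, 10067 and 12076 CPM with ethanol and 7255, 2924 and 3969 CPM with MC903 in SPF skin. In GF skin it rose from 11872, 14605 and 12905 CPM to 36880.0, 41627 and 31771 CPM. No SPF MC903 library reached any ethanol library, and all 3 GF MC903 libraries lay above the other 9. The interaction was 2.73 (SE 0.37, adjusted p = 0.00062), and 3.18 without SPF MC903 1. Krt10, the keratin that marks the first step of differentiation, did the same on a smaller scale, at 10737, 7536 and 7854 CPM in SPF MC903 libraries and 20928, 21808 and 19649 CPM in GF MC903 libraries, with an interaction of 1.16 (SE 0.20, adjusted p = 0.0025).

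Fcgbp, an IgG-Fc-binding mucus protein, fell in SPF skin from 405, 450.4 and 420.3 CPM to 82.8, 90.2 and 78.1 CPM. In GF skin it rose from 637, 706 and 606 CPM to 1132, 880.1 and 822 CPM, and its interaction was 2.88 (SE 0.16, adjusted p = 1.9e-06). The GF ethanol libraries already lay above the SPF ethanol libraries. Them5, an acyl-CoA thioesterase, fell to 48.9, 30.1 and 31.7 CPM in SPF skin and rose to 232, 235 and 218 CPM in GF skin from 134 to 176 CPM with ethanol, an interaction of 2.51 (SE 0.21, adjusted p = 4e-05). Cited4, a transcriptional co-activator, measured 13.1, 11.2 and 7.83 CPM and 69.4, 68.1 and 70.4 CPM in the MC903 libraries of SPF and GF skin, with an interaction of 2.07 (SE 0.22, adjusted p = 0.00013).

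Gadl1, a decarboxylase related to glutamate decarboxylase, rose in GF skin and fell slightly in SPF skin (-0.66): from 12.2, 13.3 and 11.4 CPM to 53.1, 56 and 59.6 CPM in GF skin, against 18.8, 12.9 and 15 CPM and 13.8, 7.66 and 8.09 CPM in SPF skin, where the groups overlap. Its interaction was 2.85 (SE 0.28, adjusted p = 8.3e-05); other gene models overlap it. The transcript 9330102E08Rik likewise rose in GF skin (1.03) and fell in SPF skin (-0.76). Nptx1, a pentraxin, ran the other way, up to 5.97, 7.74 and 8.03 CPM in SPF skin and down to 2.16, 1.64 and 1.46 CPM in GF skin from 2.85 to 5.31 CPM with ethanol. Its interaction was -2.05 (SE 0.33, adjusted p = 0.0015).

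Of the 38 tested genes of the stress keratinocyte list, keratinocyte genes of injury and inflammation, 36 rose in both housings. The SPF response was called up for 35% of all genes and the GF response for 33.4%. In the interaction 17 members were lower and 2 higher in GF skin and 19 did not pass, with a median interaction of -1.27 beside 0.02 for all genes. The share called, 50%, stands beside 17% of all genes. The higher members were Krtdap and Serpinb3b, and the higher ones numbered 0 to 3 when 1 library was left out. Median responses were 7.99 in SPF skin and 6.29 in GF skin. Lower members numbered 9 with limma voom in place of edgeR's test. Krt6a (chr15:101689928-101694305) went from 80.6, 89.7 and 70.9 CPM to 12965, 10338 and 12875 CPM in SPF skin. GF libraries held 86.7, 109 and 138 CPM with ethanol and 3475, 3546 and 4170.1 CPM with MC903. The MC903 groups do not overlap, and the interaction was -2.16 (SE 0.23, adjusted p = 0.00012).

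Krt6b, a near copy whose reads may be shared with Krt6a, reached 7724, 5137 and 7593 CPM in SPF and 2327, 2127 and 3336 CPM in GF MC903 libraries, with an interaction of -2.48 (SE 0.52, adjusted p = 0.0069). Krt17 reached 3701, 3648 and 3552 CPM and 2643, 2449 and 2844 CPM, an interaction of -1.09 (SE 0.15, adjusted p = 0.00054). For Krt16 the MC903 groups were nearer to each other, at 12019, 10110.0 and 9924 CPM in SPF skin and 8843, 8001 and 9228 CPM in GF skin. With ethanol it was higher in GF skin, at 11.5, 33.1 and 56.8 CPM against 9.38, 11.3 and 8.15 CPM. Its interaction of -2.11 (SE 0.54, adjusted p = 0.02) did not pass without SPF ethanol 3 (-2.00, adjusted p = 0.05) or with limma voom (adjusted p = 0.052).

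Members differed in where the housings parted. The GF minus SPF difference of Krt6a was 0.47 with ethanol and -1.69 with MC903, and that of Krt17 0.64 and -0.46. Among the Sprr2 genes, small proline-rich proteins with near-identical copies, Sprr2a1, Sprr2a3 and Sprr2f differed mainly with ethanol. Sprr2a3 was at 0.171, 0.309 and 0.443 CPM in SPF ethanol and 1.8, 2.45 and 1.22 CPM in GF ethanol libraries, and at 845, 900.4 and 834 CPM and 932, 981 and 1001 CPM with MC903. Its GF minus SPF difference was 2.55 with ethanol and 0.18 with MC903, and the interaction was -2.38 (SE 0.33, adjusted p = 0.00065), while all 3 GF MC903 libraries lay above the SPF ones. Sprr2f gave 1.95 and 0.18. Sprr2a1 gave 1.72 and 0.35, with an interaction of -1.37 (SE 0.34, adjusted p = 0.017), and BC100530, a stefin-like gene, 2.66 and -0.43, with one of -3.10 that limma voom did not call (adjusted p = 0.075). Over the 38 members the median GF minus SPF difference was 0.46 with ethanol and -0.58 with MC903. Ereg, an epidermal growth factor family ligand, rose in SPF skin (0.82) and fell in GF skin (-0.51).

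**Figure D3:**
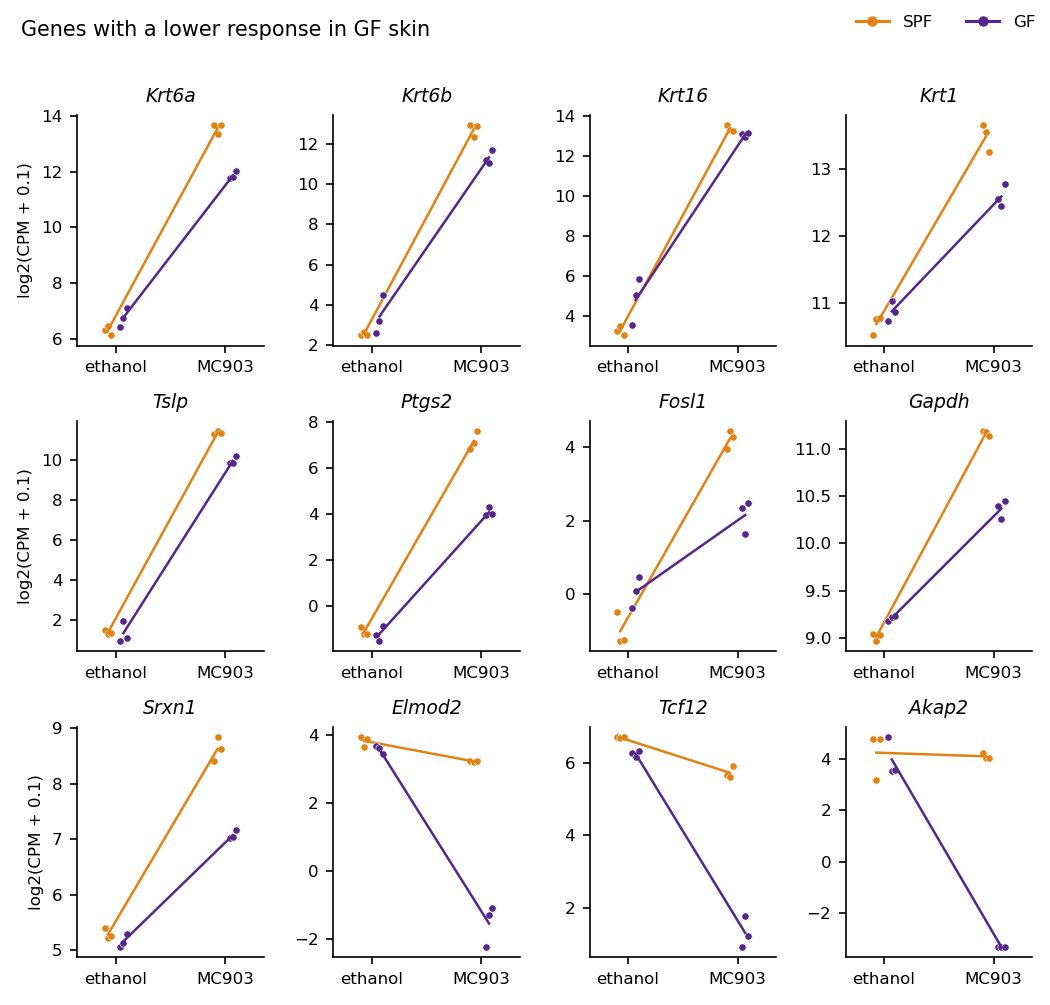
Level of 12 genes called lower in GF skin, as log2(CPM + 0.1) on axes that differ between genes, in each of 3 libraries per group (points) with lines joining the group means. The first 9 genes rise in both housings, and Elmod2, Tcf12 and Akap2 drop to low values in the 3 GF MC903 libraries.

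Genes of the cornified envelope and of differentiation split. Of 46 tested members, 14 were lower and 5 higher in GF skin and 27 did not pass, with a median interaction of -0.20. The share called was 41.3%, beside 17% of all genes. The lower members rose with MC903 in both housings and rose less in GF skin, except that Dsc1, a desmosomal cadherin, did not pass in GF skin. Among them were Krt1, with 12991, 12096 and 9845 CPM in SPF and 6028, 5578 and 7031 CPM in GF MC903 libraries (-1.10, SE 0.19, adjusted p = 0.0022), and the transglutaminase Tgm3, with 917, 939 and 1294 CPM and 392, 345 and 443 CPM (-1.85, SE 0.21, adjusted p = 0.00016). Spink5, the inhibitor of skin kallikreins that is lost in Netherton syndrome, had an interaction of -1.15 (SE 0.14, adjusted p = 0.00033), and the protease Klk7 one of -0.69 (SE 0.10, adjusted p = 0.0011). Ivl, which encodes involucrin, rose 1.14 in SPF skin and 0.38 in GF skin (-0.77, SE 0.14, adjusted p = 0.0035).

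The 5 higher members were Krt24, Krt2, Krt10, the calmodulin-like Calml3 and the desmosomal cadherin Dsg1a. Calml3 was at 107, 105 and 103 CPM in SPF MC903 libraries, below every ethanol library, and at 240.1, 271 and 217 CPM in GF MC903 libraries, with an interaction of 1.09 (SE 0.11, adjusted p = 9.3e-05). KRT1 and KRT10 form filaments as partners, and their genes had interactions of opposite sign. Lor, which encodes loricrin, rose alike, 1.23 in SPF and 1.26 in GF skin, and its interaction was 0.03 (SE 0.23, adjusted p = 0.95). Krt77, a suprabasal keratin singled out after its values were seen, fell in both housings with an interaction of 1.38 that did not pass (adjusted p = 0.14), yet stood at 0.549, 1.88 and 3.95 CPM in SPF and 21.1, 20.2 and 15.8 CPM in GF MC903 libraries.

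The alarmin genes Tslp and Il33 rose less in GF skin. Tslp (chr18:32815383-32819799), the cytokine that MC903 is known to induce in keratinocytes, rose from 2.68, 2.29 and 2.42 CPM to 2501, 2776 and 2603 CPM in SPF skin. With GF housing it rose from 1.8, 3.72 and 2.02 CPM to 917, 917 and 1154 CPM. Ethanol levels overlapped, all 3 GF MC903 libraries lay below the SPF ones, and the interaction was -1.42 (SE 0.28, adjusted p = 0.0052). Il33 measured 186, 117 and 171 CPM in SPF and 73.2, 64.8 and 72.2 CPM in GF MC903 libraries, with an interaction of -0.76 (SE 0.21, adjusted p = 0.029) that did not pass on library totals (-0.70, adjusted p = 0.053) or without any 1 of SPF ethanol 1, SPF ethanol 2, SPF MC903 1, SPF MC903 3, GF ethanol 5 and GF MC903 4 (adjusted p up to 0.074).

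Of 18 tested members of the type 2 cytokine and alarmin list, 4 were lower, 2 higher and 12 did not pass, with a median of -0.19 and 33.3% called, beside 17% of all genes. Il4, Il13, Il31, Il25, Il9 and Il5ra were below the filter, with 0 to 25 counts per group, so the counts do not cover them. Without any 1 of SPF ethanol 1, SPF ethanol 2, SPF MC903 3, GF ethanol 5 and GF MC903 4 the lower members numbered 2. The higher members were Gata3 and Postn, and Postn was not called without any 1 of SPF ethanol 1, SPF MC903 1, SPF MC903 2, GF ethanol 5 and GF MC903 4 (adjusted p up to 0.059). Gata3, a transcription factor of keratinocytes as well as of lymphocytes, fell to 29.2, 23.9 and 19.5 CPM in SPF and 79.7, 81.6 and 71 CPM in GF skin from 88.4 to 123 CPM with ethanol, an interaction of 1.42 (SE 0.17, adjusted p = 0.0003). The receptor gene Il4ra was not called (-0.32, SE 0.19, adjusted p = 0.30), with MC903 levels of 117, 84.8 and 107 CPM and 91.9, 85.8 and 94.3 CPM that overlap. Stat6, which relays interleukin-4 signals, was called at -0.39 (SE 0.08, adjusted p = 0.0091).

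Ptgs2 and Fosl1 were among the genes with the largest negative interactions. Ptgs2, which encodes cyclo-oxygenase 2, was at 0.437, 0.33 and 0.332 CPM in SPF ethanol and 0.321, 0.253 and 0.462 CPM in GF ethanol libraries. With MC903 it reached 112, 133 and 193 CPM in SPF and 15.4, 19.4 and 15.7 CPM in GF skin. The MC903 groups are far apart and the ethanol groups overlap; the interaction was -3.03 (SE 0.40, adjusted p = 0.0005), and limma voom did not call it (adjusted p = 0.057). Fosl1, an AP-1 subunit, reached 15.5, 21.6 and 19.5 CPM and 4.97, 2.97 and 5.5 CPM from 0.309 to 1.28 CPM with ethanol, with an interaction of -3.29 (SE 0.44, adjusted p = 0.00053). Among 16 immediate early genes, 8 were lower and 1 higher (56.2% called, beside 17% of all genes) and the median was -0.31. The lower ones included Fos (-1.34) and Egr3 (-0.59), and the higher one was Egr2 (0.78). Without SPF ethanol 3, GF ethanol 4 or GF MC903 1 the lower ones numbered 5.

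Of 18 tested genes of the interleukin-1, 17, 20 and 36 axis, 2 were higher, 1 lower and 15 did not pass. Il17a, Il17c, Il17f, Il22 and Il23a were below the filter, with 0 to 37 counts per group, and Il36g was not analysed. The counts do not cover these genes. The share called, 16.7%, was near the 17% of all genes, and the higher ones numbered 4 on library totals and with DESeq2. The higher ones were the decoy receptor gene Il1r2, at 52.8, 66 and 53.3 CPM in SPF and 101, 101 and 81.3 CPM in GF MC903 libraries (0.99, SE 0.17, adjusted p = 0.0026), and the receptor chain gene Il20rb (1.46, SE 0.18, adjusted p = 0.00036). The lower one was Il1rl2, the receptor gene of the interleukin-36 cytokines (-1.10, SE 0.25, adjusted p = 0.011). Il1b reached 10.2, 6.99 and 8.36 CPM and 7.72, 7.34 and 6.79 CPM and was not called (-0.84, SE 0.57, adjusted p = 0.35). Il24, at 0 in all 3 SPF ethanol libraries, reached 12.1, 7.97 and 8.13 CPM with MC903 in SPF skin, at least 487-fold higher when the group's floor of 3 counts stands for the ethanol level. In GF skin it reached 4.68, 7.81 and 4.76 CPM, and the interaction was not called (adjusted p = 0.31).

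S100a8 and S100a9, abundant proteins of neutrophils that keratinocytes also make, rose in both housings without a called difference. S100a8 reached 17.4, 18.6 and 20.6 CPM in SPF and 23.6, 42.3 and 27 CPM in GF MC903 libraries, and its interaction was 0.76 (SE 0.60, adjusted p = 0.44). S100a9 gave -0.24 (SE 0.53, adjusted p = 0.81). Summed neutrophil markers were 89.1 to 101 CPM in SPF MC903 and 101 to 160 CPM in GF MC903 libraries, after 20.3 to 29.5 CPM with ethanol. Of their 11 tested members 1 was higher and 1 lower, and the share called, 18.2%, was near the 17% of all genes. The higher one, Mmp8, had 1 count in the 3 GF ethanol libraries together and no level above 0.35 CPM, and was not called without GF ethanol 4 or GF ethanol 5 or with the replicate block (adjusted p up to 0.065). The lower one, Itgam (-0.93), is shared with macrophages. Ccl2, a monocyte chemokine, was not called (-1.55, SE 0.50, adjusted p = 0.051) with MC903 levels of 16.2, 15.4 and 22.2 CPM and 18.6, 9.67 and 9.8 CPM that overlap. It passed in 8 of 21 alternatives. These were DESeq2 (adjusted p = 0.036), DESeq2's size factors, a filter at 1 CPM, the length trend removed and genes that jump within a group left out. The others were the fits without SPF ethanol 1, GF ethanol 1 or GF MC903 1. Of 28 chemokine genes tested, 1 was higher (Cxcl10, 1.90) and 2 lower (Ccl12, -1.11, and Cxcl14, -0.85), 10.7% called beside 17% of all genes. Cxcl10 was called in 5 of the 12 fits that leave out 1 library and was not with the replicate block (adjusted p = 0.058). The higher ones numbered 2 on library totals, with a filter at 1 CPM, with DESeq2 and with limma voom, and the lower ones 4 with the length trend removed and without SPF ethanol 1, SPF MC903 1 or GF MC903 1.

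Antimicrobial proteins moved both ways: of 26 tested, 3 were higher and 5 lower (30.8% called, beside 17% of all genes), with a median of 0. The higher ones were Defb6, Wfdc21 and Wfdc17. Wfdc21 fell in SPF skin to 23.3, 20 and 18.3 CPM and stood at 65.3, 87.7 and 61.8 CPM with MC903 in GF skin, with an interaction of 1.54 (SE 0.18, adjusted p = 0.00024). Among the lower ones, the defensin Defb1 rose to 223, 245 and 264 CPM in SPF and 83.1, 96.8 and 88.3 CPM in GF skin from 18.5 to 26 CPM with ethanol (-1.14, SE 0.12, adjusted p = 0.00011), and Pglyrp3, a peptidoglycan recognition protein, had an interaction of -2.07 (SE 0.35, adjusted p = 0.0023). Defb4 (-0.76, SE 0.68, adjusted p = 0.50), Slpi (-0.61, SE 0.35, adjusted p = 0.27) and Lcn2 (0.44, SE 0.26, adjusted p = 0.28) were not called. Of 25 microbial sensor genes, 3 were called: Nod1 (1.01) and Tlr3 (0.57) were higher, and Tlr2 was lower (-0.47), a share of 12% beside 17% of all genes. Tlr3 (adjusted p = 0.041) and Tlr2 (adjusted p = 0.047) were each called in 2 of the 12 fits that leave out 1 library, and neither with limma voom or with the replicate block (adjusted p = 0.092 and 0.081 with the block). Nod1, a receptor for peptidoglycan fragments, was at 25, 19.8 and 20 CPM in SPF and 46.2, 44.7 and 39.1 CPM in GF MC903 libraries after 72 to 87.8 CPM with ethanol.

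In lists of glucose metabolism, protein folding and oxidative stress most called members were lower. With MC903, 16 of 23 tested genes of glycolysis and hypoxia, 14 of 20 heat shock and unfolded protein response genes and 9 of 16 NRF2 targets rose in both housings. Of the 23 genes of glycolysis and hypoxia, 13 were lower, 0 higher (0 also at an unadjusted p under 0.05 in edgeR's test, and 0 with DESeq2 or limma voom) and 10 did not pass, with 56.5% called beside 17% of all genes and a median interaction of -0.66 on median responses of 1.41 and 0.80. Gapdh went from 527, 501 and 524 CPM to 2328, 2311 and 2254 CPM in SPF skin. GF skin showed 579, 599 and 599.7 CPM with ethanol and 1346, 1227 and 1394 CPM with MC903, so no group overlapped another, and the interaction was -0.99 (SE 0.09, adjusted p = 5.2e-05). Pgam1 gave -0.77 (SE 0.07, adjusted p = 4.9e-05) and Pgk1 -0.80 (SE 0.09, adjusted p = 0.00016), both enzymes of later steps of the pathway. Slc16a3, the lactate exporter, reached 61.3, 66.6 and 52.4 CPM and 35.7, 39 and 33 CPM (-1.33, SE 0.16, adjusted p = 0.00027). Hif1a, the oxygen-sensitive transcription factor, reached 227, 253 and 356 CPM in SPF skin from 64.6 to 87.7 CPM with ethanol. In GF MC903 libraries it stood at 71.8, 86.5 and 84 CPM, a response that did not pass (0.29, adjusted p = 0.083), and its interaction was -1.53 (SE 0.20, adjusted p = 0.00044); it was singled out after its values were seen.

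Of 20 heat shock and unfolded protein response genes, 13 were lower and 1 higher (70% called, beside 17% of all genes), with a median of -0.55. Hspa5, the main chaperone of the endoplasmic reticulum, reached 1239, 1208 and 1231 CPM in SPF and 805, 919 and 765 CPM in GF skin from 218 to 312 CPM with ethanol, with an interaction of -0.90 (SE 0.12, adjusted p = 0.00043). Chac1, a glutathione-degrading enzyme induced by the same stress, gave -1.67 (SE 0.27, adjusted p = 0.0016) and Hsp90aa1 -0.57 (SE 0.10, adjusted p = 0.0027). The 1 higher member was the small heat shock gene Hspb1, which fell to 129.9, 121 and 89.6 CPM in SPF skin and stood at 383, 384 and 351 CPM in GF skin (1.18, SE 0.18, adjusted p = 0.0013).

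Targets of the antioxidant factor NRF2 showed 8 lower and 2 higher of 16 (62.5% called, beside 17% of all genes), with a median of -0.59. Srxn1, which encodes sulfiredoxin, rose to 341, 459.7 and 397 CPM in SPF and 129.6, 131 and 144 CPM in GF skin from 33.3 to 42.1 CPM with ethanol, with an interaction of -1.44 (SE 0.14, adjusted p = 9.4e-05). Gsta4, a glutathione transferase, gave -2.12 (SE 0.19, adjusted p = 5.5e-05). Nqo1 rose in SPF skin (1.09) and did not pass in GF skin (0.04, adjusted p = 0.79). The higher members were the transferases Gstm1 (1.11, SE 0.11, adjusted p = 0.0001) and Gsta2, both of which fell in SPF skin. Sterol and fatty acid synthesis had 12 lower and 1 higher of 26 (50% called, beside 17% of all genes), at a median of -0.27. Fdps gave -0.61, Scd2 -0.65 and, on the other side, Scd1 0.81. Of 26 genes of S phase and replication 4 were higher (Uhrf1, Pole, Mcm7 and, named after its values were seen, Chaf1b) and 1 lower (Mcm5), 19.2% beside 17% of all genes. The higher ones numbered 0 without any 1 of SPF ethanol 1, SPF ethanol 3, SPF MC903 3, GF ethanol 1 and GF MC903 5, 1 or 2 without any 1 of SPF ethanol 2, SPF MC903 2, GF ethanol 5 and GF MC903 1, and 2 with DESeq2's size factors and with the replicate block. Of 30 cytosolic ribosomal protein genes 1 was lower (Rpl5), but 4 with DESeq2 and 6 with the length trend removed. Of 30 respiratory chain genes 2 were lower (Ndufs1 and Atp5b), but 0 on library totals and with the replicate block and 4 with the length trend removed, and Ndufs1 and Atp5b were called in 1 and 4 of the 12 fits that leave out 1 library. Of 26 mitosis genes 1 was higher (Mki67, 0.68), in 4 of those 12 fits. The shares called in these 3 lists were 3.33%, 6.67% and 3.85%, beside 17% of all genes.

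Of 22 tested genes of the circadian clock, 16 fell with MC903 in SPF skin and 16 in GF skin, beside 38.8% and 35.1% of all genes. In the interaction 8 were higher, 2 lower (Cry1 and Usp2) and 12 did not pass (45.5% called, beside 17% of all genes), with a median interaction of 0.57 and median responses of -1.52 in SPF and -0.65 in GF skin. All 8 higher members fell in both housings. Without SPF ethanol 2 or GF MC903 4 the higher ones numbered 5, and the lower ones numbered 0 or 1 without any 1 of the 12 libraries and 0 on library totals, with either other filter and with the replicate block. The hour at which skin was taken was not analysed here, and its part in these values was not tested. The clock is a loop in which BMAL1 (gene Arntl) and CLOCK bind E-boxes and drive the Per and Cry genes that repress them. The output factors Hlf, Tef and Dbp bind D-boxes. Of the 7 higher members with a matched promoter, Cry2 and Nr1d2 hold no E-box or D-box there and are not shown. The promoters of the other 5 are shown because these elements are how clock genes are known to be driven. Each is the 250 bases before the start in RefSeq (GRCm38.p6), 5′ to 3′ on the gene's strand, for Tef and Per1 at 1 of their 2 starts. The window at the other start holds an E-box in Tef and none in Per1. Capitals mark an E-box (CACGTG, the same on both strands) or a D-box (TTATGTAA or TTACGTAA, both strands), and Hlf holds neither.
Hlf, chr11:90390918-90391167, reverse strand: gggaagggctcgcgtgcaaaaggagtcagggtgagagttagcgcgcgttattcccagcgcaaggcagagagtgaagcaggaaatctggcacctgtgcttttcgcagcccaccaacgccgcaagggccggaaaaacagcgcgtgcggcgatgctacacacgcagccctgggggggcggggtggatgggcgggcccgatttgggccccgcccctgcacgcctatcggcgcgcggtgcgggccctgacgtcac
Tef, chr15:81802423-81802672, forward strand: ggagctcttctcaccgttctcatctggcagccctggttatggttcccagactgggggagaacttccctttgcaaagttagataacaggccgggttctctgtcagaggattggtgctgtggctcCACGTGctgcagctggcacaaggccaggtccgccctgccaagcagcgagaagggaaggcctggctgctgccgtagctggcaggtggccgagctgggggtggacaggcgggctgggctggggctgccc
Per3, chr4:151044666-151044915, reverse strand: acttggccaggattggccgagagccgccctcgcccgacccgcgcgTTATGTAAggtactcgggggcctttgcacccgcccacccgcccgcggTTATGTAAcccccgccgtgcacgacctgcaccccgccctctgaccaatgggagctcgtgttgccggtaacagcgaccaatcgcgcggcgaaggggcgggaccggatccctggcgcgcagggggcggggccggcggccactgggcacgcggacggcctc
Per1, chr11:69098699-69098948, forward strand: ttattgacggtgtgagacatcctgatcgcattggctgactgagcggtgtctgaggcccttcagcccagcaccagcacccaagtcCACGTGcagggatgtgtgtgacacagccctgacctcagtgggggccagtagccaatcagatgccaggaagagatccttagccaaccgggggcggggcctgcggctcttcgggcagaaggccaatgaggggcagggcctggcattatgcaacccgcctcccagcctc
Ciart, chr3:95882229-95882478, reverse strand: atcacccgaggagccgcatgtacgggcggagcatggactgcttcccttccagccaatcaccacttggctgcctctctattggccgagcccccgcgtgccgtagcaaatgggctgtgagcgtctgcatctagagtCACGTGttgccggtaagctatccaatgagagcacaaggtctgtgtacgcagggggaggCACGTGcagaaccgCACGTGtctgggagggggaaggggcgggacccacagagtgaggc

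Hlf, a leucine zipper factor of the clock's output, stood at 159.9, 179 and 174 CPM with ethanol and 16.2, 11.4 and 14.6 CPM with MC903 in SPF skin. The GF libraries measured 171, 176 and 183 CPM and 70.3, 70.2 and 55.2 CPM. The ethanol groups overlap, and all GF MC903 libraries lie far above the SPF ones. The interaction was 2.16 (SE 0.17, adjusted p = 2.6e-05). Its relative Tef went to 100.1, 86.9 and 90.5 CPM and 162, 159 and 146 CPM from 296 to 327 CPM with ethanol (0.71, SE 0.09, adjusted p = 0.0005).

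Of the repressors, Per3 was at 27.6, 19.9 and 22.9 CPM in SPF and 38, 35.7 and 37.1 CPM in GF MC903 libraries (0.78, SE 0.14, adjusted p = 0.0033). Per1 was at 72.2, 61.8 and 55.6 CPM and 132, 147 and 106 CPM (0.89, SE 0.24, adjusted p = 0.025), but was not called without any 1 of SPF ethanol 2, SPF MC903 3, GF ethanol 5, GF MC903 1 and GF MC903 4 (adjusted p up to 0.062). Per2 was not called (0.54, SE 0.20, adjusted p = 0.094), but passed without GF ethanol 5 (adjusted p = 0.042). The activator Arntl was not called: it fell by 0.70 in SPF and by 0.59 in GF skin (0.11, SE 0.16, adjusted p = 0.70). Dbp (0.83, SE 0.32, adjusted p = 0.095) and Nr1d1 (0.41, SE 0.16, adjusted p = 0.11) were higher in GF skin with ethanol already, by 1.21 and 0.59. Their interactions were not called. Both passed without SPF MC903 1, and Dbp also with the replicate block (0.84, adjusted p = 0.025).

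Promoters were matched for 18 of the 22 clock genes. Counting a gene when any of its starts has the motif, an E-box was found in 5 of the 18 (27.8%), in 6.86% of the 27025 genes with a promoter in the table, and in 9.16% of the 12897 tested genes with one. A D-box was found in 1 of the 18, Per3, which holds 2 copies, in 1.1% of all and in 0.822% of the tested genes. Among the 7 higher members with a promoter, 3 held an E-box (Ciart, with 3 copies, Per1 and Tef) and 1 a D-box. The 2 other clock genes with an E-box were Bhlhe41, not called, and Cry1, called lower. These are matches of letters in a window, not sites.

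Of 20 tested T cell markers, 6 were higher in GF skin (30%, beside 7.75% of all genes), with a median interaction of 0.53. By edgeR's test 0 were lower, also at an unadjusted p under 0.05, and 0 with DESeq2 or limma voom. The 6 were Cd3g, Cd3e, Cd3d, Lck, Zap70 and Thy1, of which the first 3 encode chains of the T cell receptor complex. The first 5 fell in SPF skin, while Thy1 rose in both housings and rose more in GF skin (0.44, SE 0.12, adjusted p = 0.026). Without SPF MC903 2 or SPF MC903 3 the higher ones numbered 3. Zap70 was also not called without SPF ethanol 2 or GF ethanol 4, nor Thy1 without any 1 of SPF ethanol 1, GF ethanol 1, GF ethanol 5 and GF MC903 1. Cd3g was at 8.3, 8.6 and 8.96 CPM with ethanol and 2.55, 2.34 and 2.57 CPM with MC903 in SPF skin. Its GF levels were 9.91, 9.21 and 8.67 CPM and 5.37, 8.62 and 6.76 CPM. The 3 SPF MC903 libraries were the lowest of all 12, and the interaction was 1.37 (SE 0.21, adjusted p = 0.0012). Cd3e, at 2.57, 2.78 and 2.07 CPM in SPF and 6.42, 5.86 and 5.47 CPM in GF MC903 libraries, gave 1.05 (SE 0.25, adjusted p = 0.013).

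The summed level of the 22 T cell markers in the table was 154 to 172 CPM in SPF ethanol, 163 to 189 CPM in SPF MC903, 205 to 223 CPM in GF ethanol and 323 to 349 CPM in GF MC903 libraries. Thy1, which other skin cells also express, made up 249.6, 238 and 227 CPM of it in the GF MC903 libraries and 136, 119 and 117 CPM in the SPF MC903 libraries. Foxp3, the factor of regulatory T cells, stayed under 1 CPM and was not called (-0.84, SE 0.80, adjusted p = 0.52). The integrin gene Itgae, which epidermal T cells and dendritic cells use, gave 1.14 (SE 0.20, adjusted p = 0.0024). Cd207, which marks Langerhans cells, was not called (0.61, SE 0.22, adjusted p = 0.076). It passed on library totals, with DESeq2 and without SPF ethanol 3 or SPF MC903 1. Of 18 dendritic and Langerhans cell markers 1 was higher and 1 lower (11.1% called, beside 17% of all genes).

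Of 40 tested interferon-response genes, 20 were higher in GF than in SPF skin with ethanol, beside 11.6% of all genes, and 31 with MC903, beside 20.8%. Over the 40 tested members the median GF minus SPF difference was 0.63 with ethanol and 0.92 with MC903, and the median interaction was 0.35, with 32 of the 40 interactions above 0. Of the members 3 were called higher, Xaf1 (0.91, SE 0.21, adjusted p = 0.011), Stat2 (0.69, SE 0.21, adjusted p = 0.044) and Irgm1 (0.51, SE 0.16, adjusted p = 0.049), a share of 7.5% beside 17% of all genes. By edgeR's test 0 were lower, with 1 at an unadjusted p under 0.05, 1 with DESeq2 and 0 with limma voom. Irgm1 and Stat2 were each called in only 2 of the 12 fits that leave out 1 library. Promoters were matched for 30 of the 40 (75%), under the share of 80% required here for a motif count, which the clock list passed (81.8%). Antigen presentation by MHC class II had 1 of 14 genes called (7.14%, beside 17% of all genes), H2-DMa (0.71, SE 0.16, adjusted p = 0.012). The median housing differences of these genes were 0.58 with ethanol and 0.55 with MC903.

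**Figure D4:**
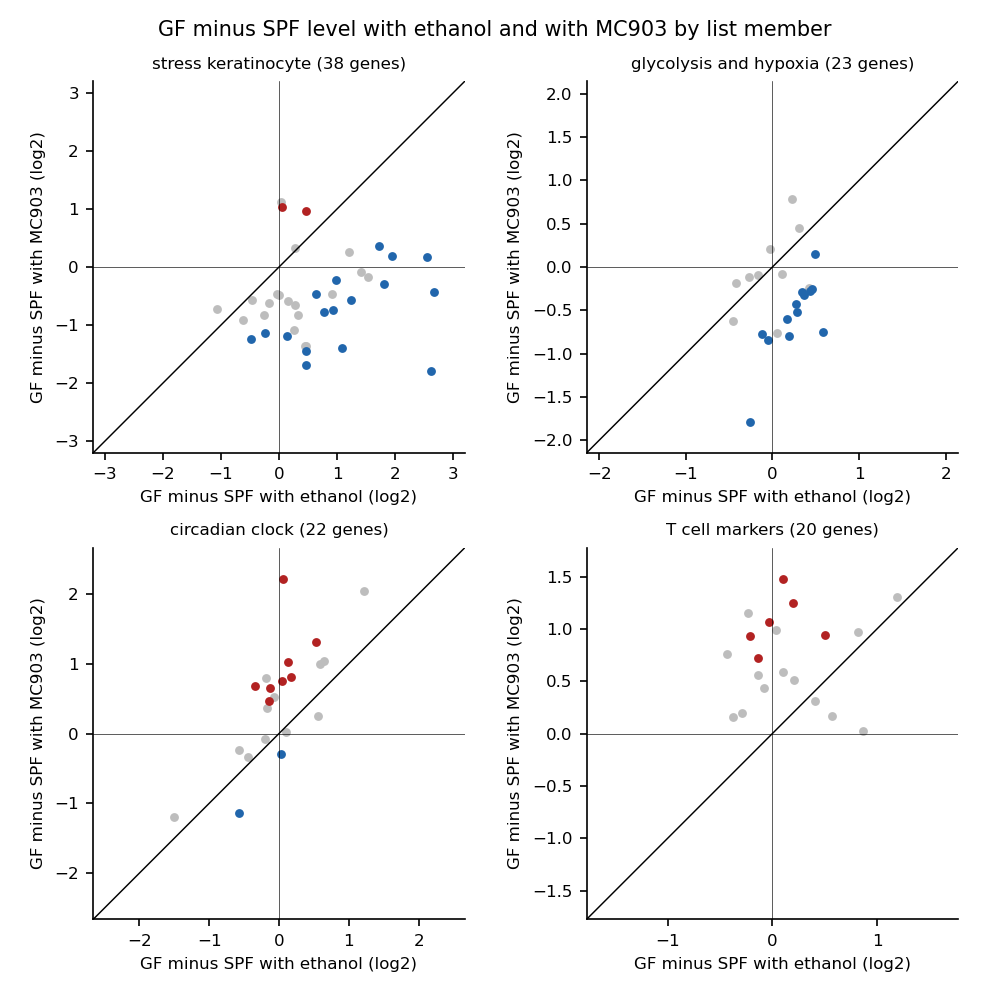
GF minus SPF difference with ethanol (horizontal axis) and with MC903 (vertical axis), log2, for the tested members of 4 lists, on axes that differ between panels. Vertical distance above the diagonal is the interaction: red points were called higher (8 clock, 6 T cell and 2 stress keratinocyte genes), blue points lower (17 stress keratinocyte, 13 glycolysis and 2 clock genes), and grey points were not called.

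Sebaceous gland genes, which make the wax and lipid of sebum, had 8 higher and 1 lower of 18 (50% called, beside 17% of all genes), at a median of 0.45. Without GF ethanol 5 the higher ones numbered 5. Far2, a fatty alcohol-forming reductase, fell to 88.4, 85.8 and 99 CPM in SPF and 154, 178 and 169.6 CPM in GF skin from 348 to 512 CPM with ethanol (1.29, SE 0.11, adjusted p = 3.4e-05). Mgst1, a microsomal glutathione transferase, gave 0.74 (SE 0.10, adjusted p = 0.00068). The lower member was Soat1, a sterol acyltransferase, which rose in both housings (-1.13, SE 0.18, adjusted p = 0.0013). The summed level of the list was 2400 to 2890 CPM in SPF MC903 and 2740 to 2960 CPM in GF MC903 libraries, which overlap.

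Ceramide and barrier lipid genes had 6 higher and 9 lower of 32 (46.9% called, beside 17% of all genes), at a median of -0.13. The lower members included the lipoxygenase Alox12b (-0.78, SE 0.09, adjusted p = 0.00019) and the ceramidase Asah1, which did not pass in SPF skin (0.09) and fell in GF skin (-0.80). Alox12e was the highest member. Retinoid genes had 3 higher and 3 lower of 20 (30% called, beside 17% of all genes). There was 1 higher with the replicate block, and 5 were lower with DESeq2. Lrat, which stores retinol as esters, reached 71.6, 85.9 and 93.8 CPM in SPF and 28.7, 39.6 and 32.3 CPM in GF skin from 0.475 to 1.95 CPM with ethanol (-2.31, SE 0.32, adjusted p = 0.0007).

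Of 14 vitamin D pathway genes, 3 were higher and 2 lower (35.7% called, beside 17% of all genes), with a median of 0.15, and 5 were higher on library totals. Cyp24a1, the enzyme that degrades vitamin D and the classic target of its receptor, was at 29.6, 73.8 and 93.6 CPM in SPF ethanol and 59.4, 83.3 and 50.8 CPM in GF ethanol libraries. With MC903 it reached 7778, 9576 and 10517 CPM in SPF and 3764, 3917 and 4551 CPM in GF skin. The MC903 groups do not overlap, but the ethanol libraries are widely spread, and the interaction was not called (-1.16, SE 0.45, adjusted p = 0.099). It passed without SPF ethanol 3 (-1.51, adjusted p = 0.039) and with the replicate block (-1.27, adjusted p = 0.045). S100g, a calcium-binding target, was not called (-1.52, SE 1.17, adjusted p = 0.43), with higher MC903 levels in GF skin (26.7, 30.4 and 27.2 CPM) than in SPF skin (9.76, 13.2 and 8.29 CPM). It had 1 count in the SPF ethanol group, so its fitted interaction rests on a level near 0. The receptor gene Vdr stayed between 61.2 and 73.6 CPM in all 12 libraries. The called members included Atp2b1, a calcium pump (-1.12, SE 0.17, adjusted p = 0.0012), Slc34a2, a phosphate carrier (1.10, SE 0.21, adjusted p = 0.0042), and Rxra, the partner of the receptor (0.55, SE 0.11, adjusted p = 0.0043).

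Of 13 basophil and mast cell markers 0 were called in edgeR's test, beside 17% of all genes. Of the 13, 1 was at an unadjusted p under 0.05 and 0 were called with DESeq2 or limma voom. Mcpt8, a basophil protease, was at 3 counts in the SPF ethanol group and at 2, 1.59 and 3.06 CPM in SPF and 3.01, 3.45 and 5.59 CPM in GF MC903 libraries (-1.66, SE 0.94, adjusted p = 0.26). Macrophage and monocyte markers had 2 lower of 22, Itgam and Arg1 (-1.55, SE 0.27, adjusted p = 0.0026), and fibroblast and collagen genes 3 higher and 3 lower of 25, shares of 9.09% and 24% beside 17% of all genes. Skeletal muscle genes differed between housings, by a median of 0.68 with ethanol and 0.69 with MC903. In the interaction 1 of 23 was called (4.35%, beside 17% of all genes). Summed muscle genes were 2880 to 3380 CPM and 2040 to 2160 CPM in SPF skin and 4120 to 4410 CPM and 2900 to 2930 CPM in GF skin. Summed red blood cell genes were 67.6 to 100 CPM and 104 to 265 CPM in SPF skin and 119 to 244 CPM and 421 to 498 CPM in GF skin. The part of muscle and of blood in the other values was not tested. Across all lists, 45 counts of called members were between 1 and 3, and 32 of them moved by over 1.5 times when 1 library was left out and 29 under another alternative.

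**Figure D5:**
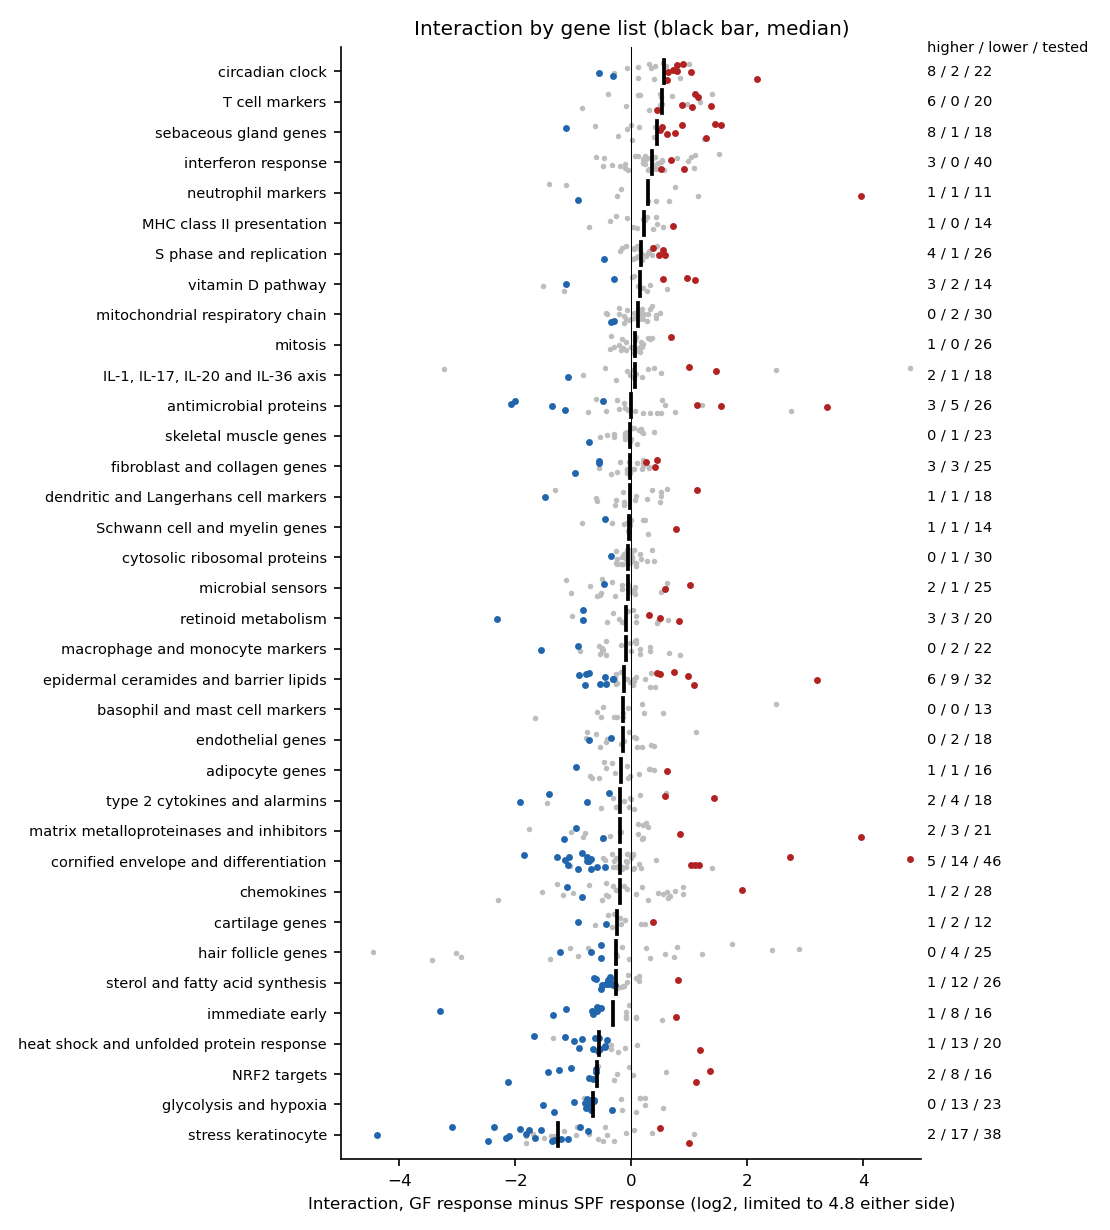
Interaction (log2) of each tested member of the 36 lists with at least 10 tested members, ordered by median (black bar), with values beyond 4.8 drawn at 4.8. Red and blue points were called higher and lower in GF skin, grey points were not, and the numbers at the right give members higher, lower and tested.

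A separate pattern held in genes that dropped to near 0 in GF MC903 libraries alone. In 4 genes the GF MC903 mean was at least 8 times below each other group's mean, with all others at 5 CPM or more: Akap2, Ankrd49, Elmod2 and Tcf12. The rule was set after the data were seen. By the same rule SPF MC903 had 6 such genes, Alox12e, Defb6, Krt24, Krt77, Serpina3b and Slurp2, and each ethanol group had 0. Tcf12, a helix-loop-helix transcription factor, was at 104, 101 and 103 CPM, 50.1, 48.9 and 59.4 CPM and 76.4, 71 and 79.5 CPM in SPF ethanol, SPF MC903 and GF ethanol libraries. In GF MC903 libraries it was at 1.82, 3.36 and 2.26 CPM, and the interaction was -3.97 (SE 0.22, adjusted p = 1.9e-06). Elmod2, a regulator of small GTPases, was between 9.1 and 15.3 CPM in the other 9 libraries and at 0.114, 0.306 and 0.372 CPM in GF MC903 libraries (-4.86, SE 0.28, adjusted p = 2e-06).

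Ankrd49 was at 2.58, 0.195 and 0.258 CPM in GF MC903 libraries and at 4.96 to 21 CPM elsewhere (-4.72, SE 0.81, adjusted p = 0.0023). Cul5, a scaffold of ubiquitin ligases, was at 10.6, 9.92 and 12.6 CPM in GF MC903 and 42.1, 104 and 102 CPM in SPF MC903 libraries (-2.79, SE 0.36, adjusted p = 0.00043), and Usp40, a ubiquitin protease, at 3.18, 2.7 and 2.69 CPM and 25.7, 29.8 and 29.3 CPM (-2.74, SE 0.44, adjusted p = 0.0015). Other gene models overlap Tcf12, Cul5 and Usp40, and the counts are estimates that the counting program can divide among models. Whether that division differed between groups was not tested for these genes.

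Akap2, which encodes an anchoring protein for protein kinase A, had 0 counts in all 3 GF MC903 libraries and a mean of 17.4 CPM in GF ethanol libraries. That mean is 615 times the floor of 3 group counts, and the 95% counting interval of the ratio starts at 505. The interaction of Akap2 was called by edgeR's test (adjusted p = 0.00051) and not by limma voom (adjusted p = 0.059). The table also lists Pakap, the name under which the joined Palm2 and Akap2 locus is annotated. Pakap had 251, 829 and 585 counts in the GF MC903 libraries and 95, 106 and 194 in the SPF MC903 libraries. The sum of both was 7.12, 23 and 16.8 CPM in GF MC903 libraries and 21.2, 19 and 22.8 CPM in SPF MC903 libraries, which overlap, and 14.6 to 31.7 CPM with ethanol.

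Nppc and Erv3, also among the largest negative interactions, rose in both housings. Nppc, the C-type natriuretic peptide, reached 7.59, 15.5 and 11.7 CPM in SPF and 1.76, 1.61 and 2.78 CPM in GF skin from under 0.4 CPM (-3.54, SE 0.71, adjusted p = 0.0056; adjusted p = 0.071 with limma voom, not called), and Erv3, an endogenous retroviral envelope gene, 107, 138 and 125 CPM and 23.2, 26.5 and 23 CPM (-2.37, SE 0.31, adjusted p = 0.0005). In both, every GF MC903 library lay below every SPF MC903 library. Tchh, a structural protein of the inner root sheath, reached 2202, 2293 and 3662 CPM and 1012, 1022 and 1019 CPM (-1.24, SE 0.26, adjusted p = 0.0071). Hair follicle genes had 4 lower of 25 (16% called, beside 17% of all genes), at a median of -0.27, and 2 lower with the replicate block. Their summed level was 3000 to 4400 CPM in SPF MC903 and 1990 to 2320 CPM in GF MC903 libraries, after 180 to 272 CPM with ethanol.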

How the data were processed

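Skin RNA was made into TruSeq libraries and read on a HiSeq4000, per the labels' protocols. Tools named in the submitters' processing notes are HISAT2 2.1.0, StringTie 1.3.4d, Trimmomatic and bcl2fastq 2.20.0, with build mm10. Settings, gene annotation and strandedness of counting were not given in the sources used here. The authors deposited a single table for all libraries with, per the file headers, a read count and an FPKM per gene. The deposited count is treated as an estimated count, since StringTie is named in the notes, and its values are whole numbers and were used unchanged. The deposited FPKM values served only for the gene length behind 1 alternative. Identifiers matched RefSeq's GRCm38.p6 table, the same build, for 24462 of 24532 genes.

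All 12 libraries were fitted in edgeR 4.0.16 (R 4.3.3) with 1 coefficient per group, TMM scaling and filterByExpr by group (minimum count 10, minimum total 15). 4221 genes were at 0 in every library, and 8066 were not tested. The common dispersion was 0.0218. The fit was first tested on simulated data, with 100 genes changed at each of 2 sizes among 16304. It recovered 61% of 2-fold and 93% of 4-fold interactions, and 8.88% of its calls were false, above the share that the 0.05 threshold aims at. Far fewer genes were changed there than the 17% called in the data, so these rates need not carry over. A gene that was not called may still differ, and the adjusted p values may be too small. Each number occurs with 1 ethanol and 1 MC903 library of its housing, and the labels do not say whether it marks 1 mouse. No block was used in the reported fit, because same-numbered libraries deviated together only weakly. That correlation cannot decide whether a number marks 1 mouse. Counting intervals cover counting error only.

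Genes were named by rule. First came the 15 largest interactions in each direction. These had to be called in every fit without 1 library, with a group mean of at least 5 CPM and no jump within a group. Next came up to 4 called members of each of 41 lists, by lowest adjusted p, and a fixed list. Last came the 8 largest interactions among called genes with opposite responses, under the same conditions as the first. Of the fixed list, Il36g and Flg were not analysed here and Camp was below the filter. The members and lists were chosen with earlier results of these data known, so no list count is independent support. Alternatives were DESeq2 1.42.0, limma 3.58.1 (voom), other scalings and filters, a length correction, a replicate block, switching genes left out, and each library left out. Figures were drawn with matplotlib.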

Additional observations from a re-analysis of the deposited data

Results flagged for a closer look

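The difference between the responses of the 2 housings was itself tested for every gene, and 2800 genes passed edgeR's quasi-likelihood test at an adjusted p under 0.05, 1276 with a higher and 1524 with a lower response in GF skin. In 8 named genes both responses passed in opposite directions: Fcgbp (interaction 2.88), Gadl1 (2.85), Krt2 (2.73), Them5 (2.51), Cited4 (2.07) and 9330102E08Rik (1.79) fell in SPF skin and rose in GF skin, and Cul5 (-2.79) and Nptx1 (-2.05) rose in SPF skin and fell in GF skin. Passing in all 12 fits that leave out 1 library was a condition for choosing these 8 genes, so it is no separate result. Groups of 3 are too small for a check of single libraries that stand apart.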

How the results depend on the processing

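The count of 2800 called genes lay between 2129 and 2765 when 1 library was left out (922 to 1306 higher, 1176 to 1459 lower), and 1714 genes were called in all 12 such fits. It was 2804 with DESeq2's size factors (1128 higher, 1676 lower), 2807 on library totals (1656, 1151), 2503 with no filter, 2871 with a filter at 1 CPM, 3429 with DESeq2, 2712 with limma voom, 2854 without 103 genes that jump within a group, and 3133 with the length trend removed (1153, 1980, 36.8% higher against 45.6%). No gene called by both the reported fit and any of these alternatives changed sign. Calls varied with gene length: of 10 classes by length, the shortest genes were 5.83% higher and 4.59% lower, and the longest 12.5% and 5.58%.

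Same-numbered ethanol and MC903 libraries deviated together weakly (correlations 0.01, 0.07 and 0.14 in SPF, 0.02, -0.02 and 0 in GF), and not every library correlated best with its own number, so the numbers were not taken as a pairing. With the replicate block 2303 genes were called (1050 higher, 1253 lower), 77.3% of the 2800 among them.

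Of 176 named genes, 148 were called, and 113 of these passed under all 21 alternatives. None of the 148 changed sign. The 12 fits that leave out 1 library are among these alternatives, and passing them was a condition for naming some of the genes. The 113 therefore do not measure how stable calls are. Of all 2800 called genes, 1714 passed in those 12 fits. Of the 28 not called, 7 passed under at least 1 alternative and 6 changed sign. Osmr (-0.04) was 0.03 on library totals, 0.18 with limma voom, 0.14 with the block and -0.42 to 0.36 without 1 library. Vdr (0.00) was -0.02 with DESeq2's size factors and DESeq2, 0 with no filter, -0.04 with the length trend removed and -0.04 to 0.03 without 1 library. Il19 (-0.03) was 0.02 on library totals, 0.22 with limma voom and -0.61 to 0.88 without 1 library. Lor (0.03) was 0 with DESeq2's size factors and DESeq2 and -0.10 to 0.18 without 1 library, Mmp13 (0.12) -0.05 with limma voom and -0.70 to 0.48 without 1 library, and S100a9 (-0.24) -0.62 to 0.39 without 1 library. The cause of these changes was not tested. Depth limits genes near 0 in 1 group, whose fitted sizes depend on few counts.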
